A study of Mus musculus with 2 samples.

Results

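Lcn2-high collecting duct cells are the kidney cells described here: cells with collecting duct transcripts in which lipocalin 2 makes up at least 0.5% of all unique molecular identifiers (UMIs, each standing for 1 captured transcript). They came from the Kif3aΔTub knockout library, and 756 of the 11607 kept cells of the series met the rule. Members were chosen by measured values. Kept cells had no fewer than 500 UMIs and 200 detected genes, and mitochondrial UMIs under 50%. The collecting duct gate asked that Aqp2, Aqp3, Hsd11b2 and Fxyd4 together reach 0.3% of a cell's UMIs and that Calb1, Slc12a1, Slc12a3 and Atp6v1g3 each stay under 3 UMIs. Of 1657 knockout cells in that gate, 756 (45.6%, 43.2 to 48.1) were Lcn2-high and 901 were Lcn2-low. None of the 62 WT gate cells was Lcn2-high, which allows a share of up to 5.78%. Because Lcn2 and the 8 gate genes chose the cells, their levels are a description, and they were left out of the counts below.

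The series holds single-cell 3' RNA profiles of kidneys from mice 5 weeks old, with 1 library labelled Kif3aΔTub (genotype KO) and 1 labelled WT. Kif3a encodes a motor subunit of kinesin-2, and Tub stands for a deletion directed to the tubule; the driver of the deletion and the number of mice behind each library are not given in the sources used here. Per the labels' protocols, kidney was dissociated with a cold-active protease and dead cells were removed. With 1 library per genotype nothing here has a replicate check, no p-value was computed, and every interval is a 95% interval for counting error only, which does not cover spread between cells or mice.

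The collecting duct drains the nephrons. Its principal cells reabsorb water through aquaporins under vasopressin and sodium through the epithelial sodium channel under aldosterone. Lcn2, also called NGAL, is a small secreted protein that binds bacterial siderophores and thereby withholds iron from bacteria; distal tubule and collecting duct release it after injury or infection, and it serves as a urinary marker of kidney damage. Kif3a is needed to build the primary cilium, and its loss from tubule leads to cystic kidneys in mice.

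Levels below are UMIs summed over the cells of a group, scaled to 1000000 UMIs of that group (CPM), and ratios are log2 of Lcn2-high over Lcn2-low unless said otherwise. Lcn2-high cells held 11546496 UMIs in all, Lcn2-low cells 9874581 and WT gate cells 291320. Median depth per cell was 11453 UMIs and 3562.5 genes in Lcn2-high cells, 8630 UMIs and 3046 genes in Lcn2-low cells, and 4631.5 UMIs and 1987.5 genes in WT gate cells. Median mitochondrial share was 6.76%, 7.56% and 14.9% in the same order. The libraries share 20 barcodes, of which 5 belong to knockout gate cells.

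Lcn2 stood at 10782 CPM in Lcn2-high cells, 2680 CPM in Lcn2-low cells and 251 CPM in WT gate cells. The median cell devoted 0.877% of its UMIs to Lcn2 among Lcn2-high cells and 0.214% among Lcn2-low cells, and the highest cell reached 8.87%. Only 95 of 1657 knockout gate cells (5.73%) had no Lcn2 UMI, against 39 of 62 WT gate cells (62.9%). As a measure of free RNA, 695 knockout cells with macrophage transcripts and few gate transcripts had a median Lcn2 share of 0 and a summed level of 1024 CPM. The distribution in the knockout gate is 1 broad peak with no gap at the threshold. The 69 cells just above the threshold (0.5 to 0.55% Lcn2) and the 60 just below (0.45 to 0.5%) had 1194 and 1084 CPM of Krt18, 14670 and 13957 CPM of Spp1, 5064 and 2976 CPM of Clu, and 1512 and 2089 CPM of S100a6, the last lower above the threshold than below it.

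**Figure D1:**
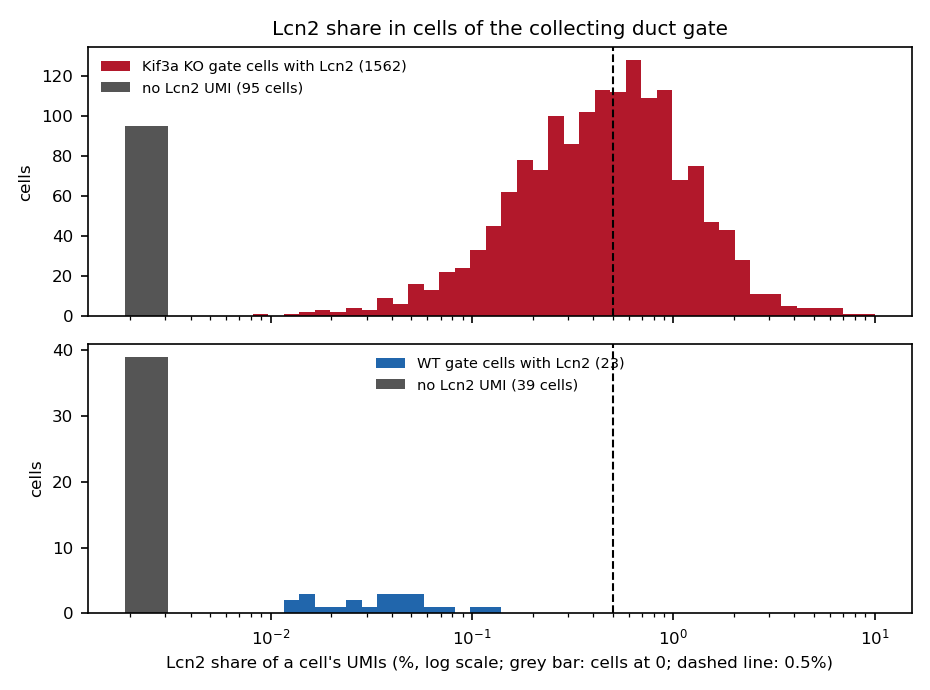
Lcn2 as a percent of each cell's UMIs (x axis, log scale) against the number of cells (y axis) for collecting duct gate cells of the Kif3a KO library (top) and the WT library (bottom), with cells without an Lcn2 UMI as a grey bar. The 0.5% threshold (dashed) lies near the middle of the knockout distribution, and all 62 WT cells lie below it.

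The label was checked against principal cell markers, of which 4 of 10 are gate genes and so say nothing about it. Of the other 6, Aqp4 had 449 CPM in Lcn2-high and 14.0 CPM in macrophage-marked cells, Gata3 298 and 20.7 CPM, Scnn1b 258 and 17.0 CPM, Avpr2 176 and 7.46 CPM, Elf5 144 and 8.86 CPM and Scnn1g 120 and 7.92 CPM, so that these collecting duct genes were present beyond the gate genes. All 10 markers, gate genes included, summed to 10737 CPM in Lcn2-high cells, 14439 CPM in Lcn2-low cells and 28254 CPM in WT gate cells, against 344 CPM in the macrophage-marked cells. Aqp2, the vasopressin-regulated water channel of the apical membrane, stood at 3317 CPM in Lcn2-high cells, 4666 CPM in Lcn2-low cells and 9042 CPM in WT gate cells. Fxyd4, a regulator of the sodium pump, stood at 3410, 4237 and 10051 CPM in these groups. Aqp3, the basolateral water channel, stood at 587, 1049 and 2787 CPM. Hsd11b2, which shields the mineralocorticoid receptor from glucocorticoids, stood at 1980, 2779 and 4342 CPM. Each gate gene thus stood lower in Lcn2-high than in Lcn2-low cells.

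Markers of other tubule cells were low. Proximal tubule markers (8 of 8 detected) summed to 19.3 CPM in Lcn2-high cells, 67.1 CPM in Lcn2-low cells and 917 CPM in WT gate cells. Connecting tubule markers (6 of 6 detected in both knockout groups) summed to 141, 469 and 2931 CPM in the same order. Intercalated cell markers summed to 18.4, 42.9 and 51.5 CPM, with Slc4a1 and Insrr at 0 in Lcn2-high cells. Among blood and connective tissue cells, neutrophil markers summed to 11.8 CPM in Lcn2-high and 33.9 CPM in Lcn2-low cells, with Ngp, Camp, Ltf and Mmp8 at 0 in Lcn2-high cells. Macrophage markers summed to 133 and 137 CPM and fibroblast markers to 16.5 and 52.6 CPM in the 2 knockout groups. Monocyte markers summed to 864 and 542 CPM, of which 832 and 482 CPM were Plac8, a gene that stood at 142 CPM in macrophage-marked cells and so was higher in these epithelial cells than there. Scrublet called 18 Lcn2-high cells (2.38%) and 27 Lcn2-low cells (2.997%) doublets. In WT gate cells the contribution of free proximal and connecting tubule RNA to the levels was not tested.

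Kif3a, the targeted gene, stood at 10.3 CPM (8.54 to 12.3) in Lcn2-high cells, 10.03 CPM (8.15 to 12.2) in Lcn2-low cells and 27.5 CPM (11.9 to 54.1) in WT gate cells, the last from 8 UMIs. The knockout groups did not differ from each other beyond counting error (log2 ratio 0.04, -0.36 to 0.44). A 3' count need not see a deletion elsewhere in the transcript.

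Promoter sequence is shown for Lcn2, which defines the cells, and for S100a6 and Ankrd1, an abundant and a scarce gene with high ratios in them. These are the 250 bases before the RefSeq transcript start (GRCm38.p6), 5′ to 3′ on the gene's strand, at chr2:32387740-32387989 (minus strand) for Lcn2, chr3:90612644-90612893 (plus strand) for S100a6 and chr19:36119845-36120094 (minus strand) for Ankrd1. Capitals mark matches on either strand to 5 short motifs.
Lcn2: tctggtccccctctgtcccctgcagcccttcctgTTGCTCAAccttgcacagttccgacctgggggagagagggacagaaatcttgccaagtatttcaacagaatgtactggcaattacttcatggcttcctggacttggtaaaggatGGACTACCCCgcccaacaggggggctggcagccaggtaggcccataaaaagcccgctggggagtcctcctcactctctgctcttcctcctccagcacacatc
S100a6: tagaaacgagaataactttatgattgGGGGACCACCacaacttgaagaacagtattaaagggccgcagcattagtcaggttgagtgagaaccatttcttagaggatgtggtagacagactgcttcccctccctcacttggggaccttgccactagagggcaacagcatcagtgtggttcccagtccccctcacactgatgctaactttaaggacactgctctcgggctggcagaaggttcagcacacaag
Ankrd1: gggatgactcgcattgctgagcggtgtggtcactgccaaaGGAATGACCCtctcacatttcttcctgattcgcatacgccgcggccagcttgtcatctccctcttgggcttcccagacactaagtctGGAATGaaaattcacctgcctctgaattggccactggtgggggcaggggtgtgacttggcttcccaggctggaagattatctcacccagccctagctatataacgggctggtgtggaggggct
The motifs searched were TGANTCA for AP-1, GGAATG for TEAD factors, GGG and CC parted by any 5 bases for NF-kB, TTGCNNAA for C/EBP and TATAAA. The Lcn2 window held 1 NF-kB and 1 C/EBP match, and the S100a6 window 1 NF-kB match. The Ankrd1 window held 2 TEAD matches, of which 1 overlaps its NF-kB match. Of 32851 RefSeq windows of this length, 45.8% hold the NF-kB letters, 12.6% the TEAD letters, 12.4% TATAAA, 9.56% the C/EBP letters and 6.75% the AP-1 letters. Of the 13 genes with the highest ratios that have a window, 11 hold the NF-kB letters, 4 the C/EBP letters, 3 the TEAD letters, 2 the AP-1 letters and 2 TATAAA. Of the 11 genes with the lowest ratios that have a window, 7 hold the NF-kB letters, 4 the TEAD letters, 3 TATAAA, 1 the C/EBP letters and none the AP-1 letters. A gene was counted if any of its windows held the letters, whereas the percents are per window, so the 2 are not alike. A match describes letters only.

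Against Lcn2-low cells, Lcn2-high cells were higher by at least 2-fold for 93 of 11157 genes with at least 50 UMIs (0.834%) and lower by at least 2-fold for 109 (0.977%). The median log2 ratio of all tested genes was -0.05, and 40.8% of them had a ratio above 0, the level against which the counts of list members above or below 0 are to be read. The 15 highest and 15 lowest ratios among genes of at least 50 CPM are named below, leaving out rule genes, markers of blood and connective tissue, and genes whose level in the higher group was under 0.5 times that of all kept knockout cells, a guard against free RNA.

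The highest ratio was that of Ankrd1, a stretch-responsive nuclear ankyrin protein and a known target of the YAP co-activator, at 54.5 CPM (50.3 to 58.9) in Lcn2-high cells and 15.2 CPM (12.9 to 17.8) in Lcn2-low cells (log2 ratio 1.84, 1.58 to 2.11). WT gate cells had no Ankrd1 UMI, so that Lcn2-high cells were at least 5.29-fold higher, taking 3 counts over the WT group as the floor. Ankrd1 was found in 170 of 756 Lcn2-high cells and 61 of 901 Lcn2-low cells. The 10 cells with the most Ankrd1 held 33.4% of its UMIs among Lcn2-high cells and 54.0% among Lcn2-low cells. Clca3a2, of the calcium-activated chloride channel regulator family, had 95.9 CPM in Lcn2-high and 30.4 CPM in Lcn2-low cells (log2 ratio 1.66) and no UMI in WT gate cells. Its UMIs came from 327 and 172 cells of the knockout groups. Myl9, a regulatory light chain of non-muscle and smooth muscle myosin, had 55.0 and 17.5 CPM (log2 ratio 1.65) and no UMI in WT gate cells. Pdlim7, an actin-binding adaptor, had 66.1 and 35.7 CPM (log2 ratio 0.89), and Basp1, a membrane protein linked to actin, 104 and 46.0 CPM (log2 ratio 1.17). Nid1, the basement membrane linker nidogen, had 76.0 and 37.7 CPM (log2 ratio 1.01). Basp1 had 259 CPM in macrophage-marked cells. Nid1 had 175 CPM in knockout cells with endothelial and few gate transcripts (endothelium-marked cells). Myl9 had 46.4 CPM in endothelium-marked cells and 54.1 CPM over all kept knockout cells. Ankrd1 and Clca3a2 had 6.76 and 13.1 CPM in macrophage-marked and 20.9 and 5.54 CPM in endothelium-marked cells. The part of such RNA in these ratios was not tested.

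The abundant genes of this set were S100a6, Clu, Ctsd and Spp1. S100a6, a small calcium-binding protein of dividing and damaged epithelium, stood at 3535 CPM (3500 to 3569) in Lcn2-high cells, 1334 CPM (1311 to 1357) in Lcn2-low cells and 13.7 CPM (3.74 to 35.2) in WT gate cells. Its log2 ratio was 1.41 (1.38 to 1.43). After thinning each cell to 1000 UMIs, 62.8% of Lcn2-high and 39.4% of Lcn2-low cells had an S100a6 UMI, against 15.4% of macrophage-marked cells, whose summed level was 672 CPM. Clu, the secreted chaperone clusterin, stood at 6685 CPM in Lcn2-high, 3259 CPM in Lcn2-low and 220 CPM in WT gate cells (log2 ratio of the knockout groups 1.04, 1.02 to 1.06). Ctsd, the lysosomal protease cathepsin D, stood at 2922, 1582 and 350 CPM (log2 ratio 0.89). Spp1, the secreted phosphoprotein osteopontin, stood at 19357, 11409 and 261 CPM (log2 ratio 0.76) and was found in all 756 Lcn2-high cells. Its detection does not set these cells apart, since 98.0% of Lcn2-low cells also had it. Spp1 had 16821.5 CPM over all kept knockout cells, 3907 CPM in macrophage-marked and 4270 CPM in endothelium-marked cells. The part of free RNA in its level was not tested. For these 4 genes Lcn2-low cells already stood above WT gate cells, and Lcn2-high cells stood higher again.

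The distributions overlapped at the level of single cells. Among cells with at least 3000 UMIs (653 Lcn2-high, 683 Lcn2-low), the median Clu share was 0.440% against 0.201% of UMIs, with quartiles of 0.208 and 0.859% in Lcn2-high and of 0.0891 and 0.412% in Lcn2-low cells. The level exceeded by 10.1% of Lcn2-low cells was exceeded by 41.7% of Lcn2-high cells for Ctsd, 36.1% for Spp1, 32.5% for S100a6, 25.9% for Clu and 19.8% for Krt18.

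The remaining genes of the upper set were Stmn1 and Tubb5, a microtubule-destabilising protein and a tubulin found at high level in dividing cells, Sprr2f, a cornified-envelope protein, Rasl11a, a small GTPase, and Bok, a BCL2-family protein. Stmn1 had 192 CPM in Lcn2-high, 100.2 CPM in Lcn2-low and 172 CPM in WT gate cells, so that Lcn2-high cells stood near the WT level here. Among Lcn2-high cells, 53 were counted as cycling by a rule given below. These 53 cells held 1351 of the 2215 Stmn1 UMIs and 1311 of the 4048 Tubb5 UMIs of Lcn2-high cells, at 789 and 765 CPM. Over the alternative settings the log2 ratio ranged from 0.03 to 1.07 for Stmn1 and from 0.47 to 0.90 for Tubb5. In macrophage-marked cells Stmn1 had 308 CPM and Tubb5 550 CPM, above the Lcn2-high level of both. The part of macrophage RNA in these ratios was not tested. Sprr2f had 153 CPM in Lcn2-high and 84.4 CPM in Lcn2-low cells, but it was found in 90 and 55 cells, and 10 cells held 72.1% and 91.1% of its UMIs. Sprr2f was thus a gene of few cells in both groups, and its ratio was below 0 when Lcn2-low cells were limited to those under 0.1% Lcn2.

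Among genes that passed this guard the lowest ratio belonged to Sgk1, the aldosterone-induced kinase that raises sodium channel activity. It had 33.7 CPM (30.4 to 37.2) in Lcn2-high cells, 125 CPM (119 to 133) in Lcn2-low cells and 68.7 CPM (41.9 to 106) in WT gate cells (log2 ratio of the knockout groups -1.90, -2.07 to -1.73). Thinned to 1000 UMIs, 3.78% of Lcn2-high and 11.4% of Lcn2-low cells had an Sgk1 UMI, and 2.99% of macrophage-marked cells did, so the Lcn2-high share is close to that background. Endothelium-marked cells, where Sgk1 is abundant, had 1126 CPM.

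Other genes of the lower set were Tesc, a calcium-binding regulator of sodium-proton exchange (20.7 CPM in Lcn2-high and 50.1 CPM in Lcn2-low cells), Fstl1, a secreted follistatin-like protein (39.8 and 87.0 CPM), and Atp6v1b1, a proton pump subunit (44.4 and 87.2 CPM). Sostdc1, a secreted BMP and Wnt antagonist, had 82.6 and 150 CPM, Kcne1, a potassium channel subunit, 30.8 and 55.1 CPM, Tfap2b, a distal nephron transcription factor, 28.8 and 50.2 CPM, and Nudt4, a nucleotide hydrolase, 794 and 1253 CPM. For each of these 7 genes WT gate cells stood above both knockout groups, at 113 CPM for Tesc, 172 CPM for Fstl1, 175 CPM for Atp6v1b1, 302 CPM for Sostdc1, 168 CPM for Kcne1, 96.1 CPM for Tfap2b and 2101 CPM for Nudt4. The rest were BC018473 (log2 ratio -0.96), Usp2 (-0.78), Dpp4 (-0.74), Col26a1 (-0.68), Myo10 (-0.65), Ptgfr (-0.65) and Tox3 (-0.62). Tesc, Sostdc1 and Tfap2b had 71.1, 229 and 56.8 CPM over all kept knockout cells. In Lcn2-low cells of a thick ascending limb gate, described below, they had 258, 1463 and 241 CPM. Fstl1, Atp6v1b1, Kcne1 and Nudt4 stood lower there than in Lcn2-low collecting duct cells. The part of RNA from other distal cells in these levels was not tested.

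**Figure D2:**
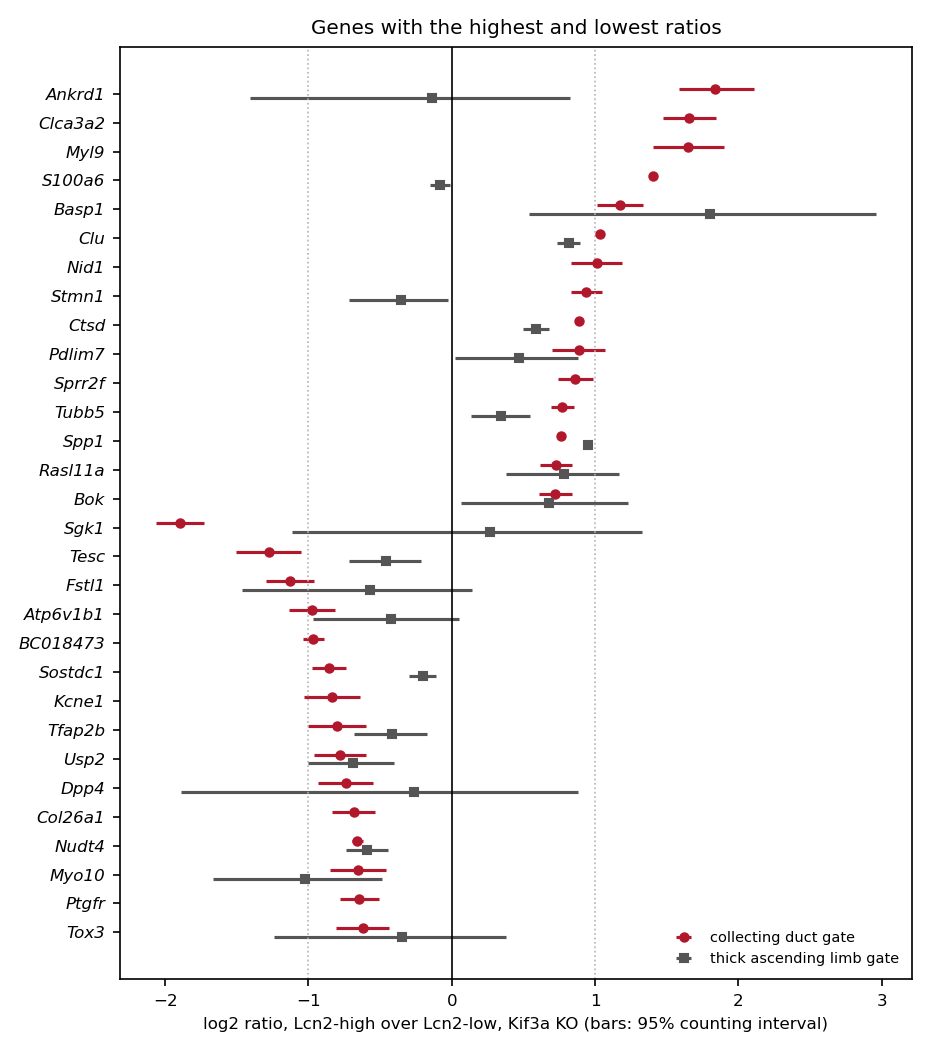
Log2 ratio of Lcn2-high over Lcn2-low cells of the Kif3a KO library (x axis; bars are 95% counting intervals, dotted lines mark 2-fold) for the 15 highest and 15 lowest genes (y axis), in the collecting duct gate (circles) and in thick ascending limb gate cells (squares; genes with 3 or fewer UMIs in either limb group are not drawn). Clu, Ctsd and Spp1 lie to the right of 0 in both, whereas S100a6 and Stmn1 lie to the right in collecting duct and slightly to the left in thick ascending limb.

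Among Lcn2-high cells most of these levels were graded with Lcn2. Knockout gate cells were divided into ranges of under 0.1% (202 cells), 0.1 to 0.25% (312), 0.25 to 0.5% (387), 0.5 to 1% (456), 1 to 2% (229) and 2% or more Lcn2 (71). Across the 3 Lcn2-high ranges, Clu stood at 4826, 9137 and 10860 CPM, S100a6 at 2253, 5204 and 6504 CPM, Spp1 at 15952, 22021 and 34872 CPM and Ankrd1 at 26.9, 84.6 and 143 CPM. Across the 3 Lcn2-low ranges Clu had 3537, 3016 and 3345 CPM and S100a6 1627, 1095 and 1414 CPM, without such an order. Spp1 stood higher at each of these steps, at 8064, 10388 and 12633 CPM, and Ankrd1 had 9.36, 7.48 and 20.7 CPM. Sgk1 stood at 229, 164, 83.6, 39.8, 27.9 and 10.3 CPM over the 6 ranges and so was lower at each step. Nudt4 stood at 925, 636 and 435 CPM in the Lcn2-high ranges, Scnn1g at 134, 101 and 91.7 CPM, and Gata3, a transcription factor of collecting duct, at 315, 280 and 244 CPM. Of the gate genes, Aqp2 stood at 3937, 2464 and 2074 CPM, Aqp3 at 748, 377 and 213 CPM and Hsd11b2 at 2321, 1558 and 1096 CPM, while Fxyd4, at 3561, 3120 and 3457 CPM, had no such order. In the Lcn2-low ranges Aqp2 had 3731, 4893 and 4715 CPM and Gata3 255, 359 and 327 CPM, without an order. Nor was there an order for Hsd11b2 (2400, 2934 and 2763 CPM) or Nudt4 (1333, 1395 and 1156.5 CPM). Aqp3 stood higher at each of these steps (823, 1015 and 1111 CPM) and Scnn1g lower (177, 175 and 163 CPM). Myl9 departed from the pattern, with 59.6, 55.1 and 18.3 CPM in the Lcn2-high ranges. Median depth was 11086.5, 12574 and 9699 UMIs in the 3 Lcn2-high ranges and 2503 UMIs in the lowest Lcn2 range.

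**Figure D3:**
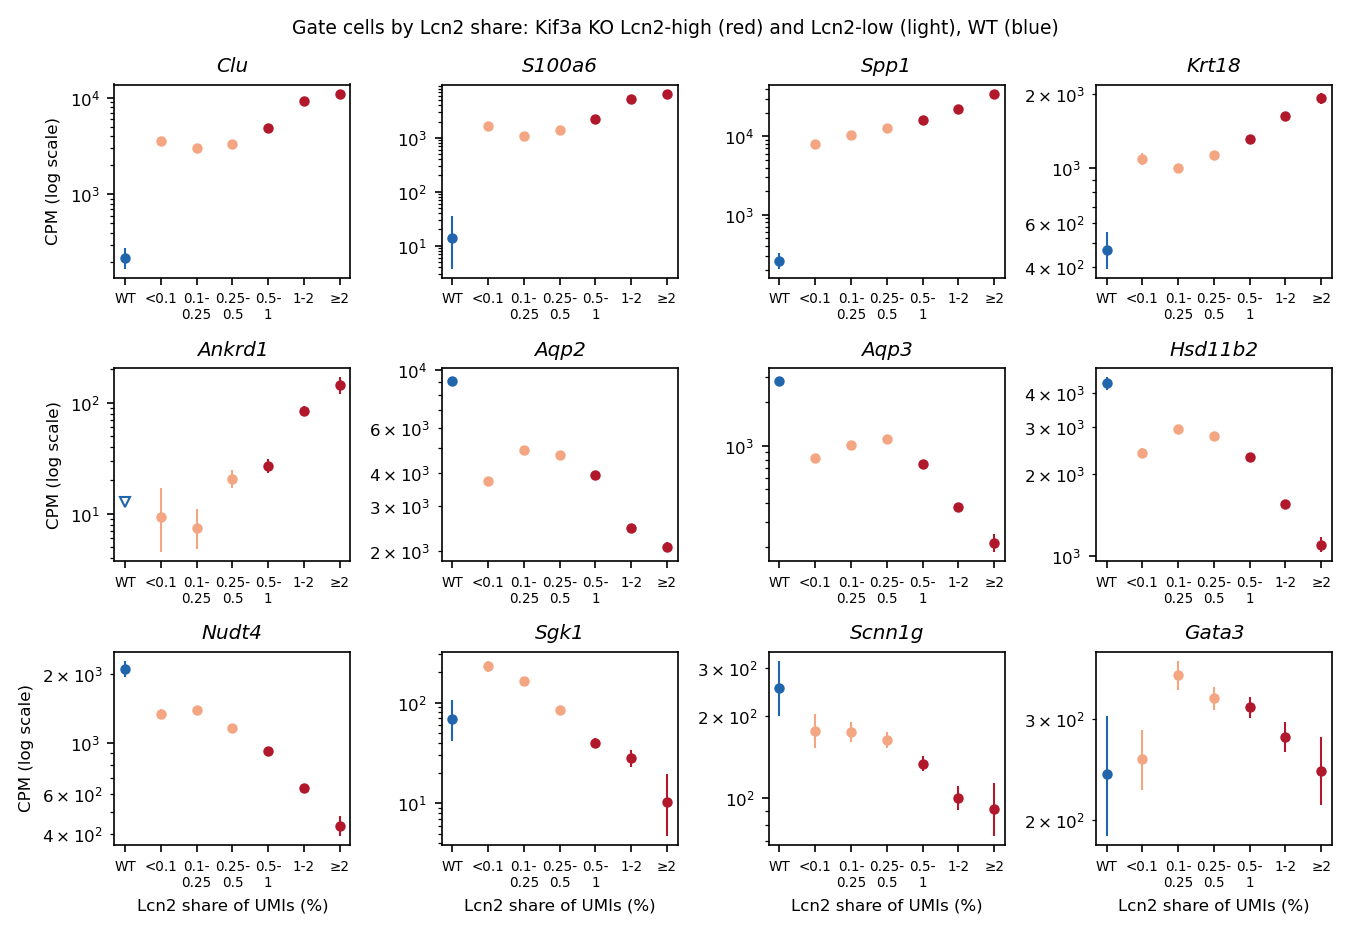
Level of 12 genes in CPM (y axis, log scale) in WT gate cells and in Kif3a KO gate cells by Lcn2 percent of UMIs (x axis), with 95% Poisson intervals and an open triangle for the upper limit where no UMI was counted. Clu, S100a6, Spp1, Krt18 and Ankrd1 stand higher and the 7 transport, kinase and identity genes lower with each Lcn2-high range. Under 0.5%, Spp1 is higher and Sgk1 lower with each range.

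Across the 653 Lcn2-high cells with at least 3000 UMIs, the shares of S100a6, Clu, Ctsd and the keratins varied together, and that of Spp1 did so weakly or not at all. Spearman's rho was 0.55 between S100a6 and Clu, 0.55 between Clu and Ctsd, 0.56 between S100a6 and Krt19 and 0.46 between S100a6 and Krt18. Spp1 had a rho of 0.20 with Clu and with Ctsd, -0.01 with S100a6 and -0.11 with Krt18. Lcn2 itself had a rho of 0.41 with Spp1, 0.39 with Clu and 0.34 with S100a6, and of -0.42 with Hsd11b2 and with Nudt4. Aqp2 and Aqp3 had a rho of 0.78. S100a6 had a rho of 0.25 with depth and -0.25 with mitochondrial share. The shared variation was not limited to Lcn2-high cells. In the 683 Lcn2-low cells of that depth, rho was 0.37 for S100a6 and Clu and 0.36 for Clu and Ctsd. It was 0.375 for S100a6 and Krt19, 0.35 for S100a6 and Krt18, -0.01 for S100a6 and Spp1 and 0.77 for Aqp2 and Aqp3. Lcn2 there had a rho of 0.23 with Spp1, 0.09 with Clu, 0.17 with S100a6, -0.07 with Hsd11b2 and -0.24 with Nudt4. These cells come from 1 library and the shares of a cell add up to a whole, so the values are a description.

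Before any removal of cells, collecting duct water and salt transport was lower as a group. Of 27 genes tested, 1 was higher and 3 were lower by at least 2-fold, 26 had a ratio below 0, and the median was -0.39 against -0.05 for all genes. The sodium channel subunits had log2 ratios of -0.16 (Scnn1a), -0.39 (Scnn1b) and -0.49 (Scnn1g), at 392, 258 and 120 CPM in Lcn2-high cells against 438, 338 and 169 CPM in Lcn2-low cells. Kcnj1, the apical potassium channel ROMK, had 220 CPM in Lcn2-high, 312 CPM in Lcn2-low and 625 CPM in WT gate cells (log2 ratio of the knockout groups -0.50). Nr3c2, the mineralocorticoid receptor, had 14.2, 24.7 and 92.7 CPM (-0.80), Nedd4l, the ubiquitin ligase that removes the sodium channel from the membrane, 125, 172 and 178 CPM (-0.46), and Rhcg, an ammonia channel, 281, 395 and 645 CPM (-0.49). Avpr2, the vasopressin receptor, was closer, with 176 CPM in Lcn2-high and 197 CPM in Lcn2-low cells (-0.17), as was the basolateral water channel Aqp4 with 449 and 516 CPM (-0.20). The ratios of Scnn1a, Avpr2 and Aqp4 were above 0 under 3 or 4 of the alternatives, and those of Scnn1g, Kcnj1, Nr3c2 and Rhcg were above 0 when cells with at least 3 UMIs of blood or connective tissue markers were removed. This wide removal takes out 77.6% of Lcn2-high and 56.4% of Lcn2-low cells. A narrow removal, which spares cells for Plac8 and the macrophage lysozyme Lyz2, takes out 20.4% and 11.8%, and those 4 ratios stayed below 0 under it. The median of the transport list was 0.06 after the wide removal, so its direction did not hold there, and -0.40 after the narrow one. Akap12, a scaffold of protein kinase A, was the 1 member with a higher level, at 47.8 CPM in Lcn2-high and 23.7 CPM in Lcn2-low cells (1.01). Fxyd2, the sodium pump gamma subunit, had 48.2 and 189 CPM (-1.97), but 10 Lcn2-low cells held 52.3% of its UMIs there and macrophage-marked cells had 494 CPM, so its level lay under that background in both groups.

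Transcription factors of the collecting duct were closer between the groups. Of 26 tested, none was higher and 3 were lower by at least 2-fold, with a median of -0.17. The 3 were scarce: Emx1 had 1.13 CPM in Lcn2-high and 8.71 CPM in Lcn2-low cells, Hoxd10 had 4.24 and 12.5 CPM, and Foxi1, the factor of intercalated cells, had 8.31 and 23.4 CPM. Tfcp2l1, needed for the pattern of principal and intercalated cells, had 500.5 CPM in Lcn2-high, 666 CPM in Lcn2-low and 1147 CPM in WT gate cells (log2 ratio of the knockout groups -0.41). Gata2 had 88.6, 110 and 251 CPM (-0.31), Sim1 44.0, 58.3 and 182 CPM (-0.41) and Gata3 298, 329 and 240 CPM (-0.14). Elf3, an epithelial factor induced by inflammation, stood the other way at 210, 169 and 75.5 CPM (0.31).

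Genes of tubular injury leaned upward, in a list that was chosen with earlier results of these data known and holds S100a6, Clu and Spp1. Of 30 tested, 4 were higher by at least 2-fold, 1 was lower, 27 had a ratio above 0, and the median was 0.24. This median was 0.03 after the wide removal and 0.26 after the narrow one. Beside S100a6, Clu and Spp1, the members with higher levels included Sprr1a at 49.9 CPM in Lcn2-high and 15.6 CPM in Lcn2-low cells, Anxa3, a phospholipid-binding annexin, at 188 and 128 CPM, Dcdc2a, a doublecortin-domain protein, at 220 and 163 CPM, and Plaur, the urokinase receptor, at 24.2 and 14.3 CPM. Sprr1a was found in 54 and 27 cells, with 72.7% and 86.4% of its UMIs in 10 cells, and its ratio was below 0 after the wide removal. Timp1, an inhibitor of matrix proteases, had 47 and 17 UMIs. The small heat shock protein Cryab had 1937 CPM in Lcn2-high and 1936 CPM in Lcn2-low cells, and Lgals3, galectin-3, had 1370 and 1244 CPM. Vim, an intermediate filament of connective tissue and dedifferentiated tubule, was the lower member at 8.14 and 19.1 CPM, with 91.5% of its Lcn2-low UMIs in 10 cells. Havcr1, a marker of proximal tubule injury, and Vcam1 had too few UMIs to be tested. Anxa3 had no UMI in WT gate cells and Dcdc2a had 1, while macrophage-marked cells had 206 CPM of Anxa3 and 21.0 CPM of Dcdc2a.

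Keratins, the intermediate filaments of epithelium, were mixed, with 4 of 7 above 0. Krt18 stood at 1462 CPM (1440 to 1484) in Lcn2-high, 1085 CPM (1064 to 1106) in Lcn2-low and 467 CPM (392 to 552) in WT gate cells (log2 ratio of the knockout groups 0.43). Its partner Krt8 had 899, 747 and 354 CPM (0.27), Krt7 1448, 1133 and 886 CPM (0.35) and Krt19 322, 227 and 20.6 CPM (0.50). Of the 7 keratins tested none was higher and 1 was lower by at least 2-fold, with a median of 0.27. After thinning to 1000 UMIs the share of cells with a Krt18 UMI was 66.7% in Lcn2-high and 64.2% in Lcn2-low cells, a difference within counting error, against 3.29% of macrophage-marked cells. The lower member was Krt15, with 5 UMIs in Lcn2-high and 83 in Lcn2-low cells, of which 69 were in 1 cell. Krt80 (35.1 and 42.6 CPM) and Krt23 (22.6 and 26.1 CPM) had ratios below 0. The list's median was -0.24 after the wide removal and 0.26 after the narrow one.

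The iron handling genes around Lcn2 were level. Of 18 tested, 1 was higher and 1 was lower by at least 2-fold, and the median was 0.01. Slc22a17, the receptor proposed to take up Lcn2, had 35.9 CPM in Lcn2-high, 33.2 CPM in Lcn2-low and 79.0 CPM in WT gate cells. The ferritin chains Fth1 and Ftl1 had 3644 and 3491 CPM in Lcn2-high, 3582 and 3058 CPM in Lcn2-low and 3306 and 1874 CPM in WT gate cells. Tfrc, the transferrin receptor, had 20.8, 18.03 and 17.2 CPM, Slc40a1, the iron exporter ferroportin, 57.6, 54.1 and 61.8 CPM, and Hmox1, the haem-degrading oxygenase, 14.7, 14.6 and 10.3 CPM. The higher member was Steap1, of a family of metalloreductases, with 12.4 CPM in Lcn2-high cells (143 UMIs) and 4.25 CPM in Lcn2-low cells (42 UMIs; log2 ratio 1.53). The lower member was Lrp2, the proximal tubule receptor megalin, which also binds Lcn2, at 1.65 and 9.01 CPM. In both groups this was below its 15.4 CPM in macrophage-marked cells.

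Of 34 genes of the NF-kB and cytokine response, 1 was higher and none was lower by at least 2-fold (median 0.09). Tnfrsf12a, the TWEAK receptor, had 47.4 CPM in Lcn2-high and 26.9 CPM in Lcn2-low cells (log2 ratio 0.81) and Osmr, the oncostatin M receptor, 14.2 and 9.92 CPM (0.51). Only 3 of 15 chemokines reached 50 UMIs. Interferon-induced genes had a median of 0.46, with 18 of 20 above 0 and 1 higher by at least 2-fold. Their median was -0.007 after the wide removal and 0.58 after the narrow one. Ifitm3, an antiviral membrane protein, had 593 CPM in Lcn2-high, 382 CPM in Lcn2-low and 79.0 CPM in WT gate cells (0.63), Isg15, a ubiquitin-like modifier, 36.1, 21.6 and 3.43 CPM (0.74) and Gbp2, a guanylate-binding protein, 30.8, 18.6 and 0 CPM (0.72). Ifitm3 had 972 CPM and Isg15 37.1 CPM in macrophage-marked cells, at or above the Lcn2-high level, and the part of such RNA was not tested. Ifit3 had 33.5 and 19.04 CPM in the knockout groups (0.81), with 45.2% of its Lcn2-high UMIs in 10 of 756 cells, and the ratios of Isg15 and Ifit3 were below 0 with a threshold of 1% Lcn2. Of 15 other antimicrobial and acute phase genes none was higher and 4 were lower by at least 2-fold (median -0.45). This direction did not hold throughout, since the median was 0.12 after the wide removal described above, and the log2 ratios of S100a8 and S100a9 were 1.58 and 1.07 against Lcn2-low cells under 0.1% Lcn2. Among them were S100a8 and S100a9, proteins of neutrophils, and Hp, haptoglobin. S100a8 had 48 UMIs in 8 Lcn2-high cells and 153 UMIs in 12 Lcn2-low cells, where 10 cells held 98.7% of them.

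Energy metabolism was slightly lower. All 31 nuclear-encoded oxidative phosphorylation genes had a ratio below 0 (median -0.21), as had all 13 mitochondrial transcripts (median -0.37), and none passed 2-fold. Ndufs1, a complex I subunit, had 51.4 CPM in Lcn2-high and 64.7 CPM in Lcn2-low cells, and mt-Nd2 had 1562 and 2186 CPM. Mitochondrial share per cell is the sum of mitochondrial transcripts, so its difference in the same direction is not a separate observation. Ppargc1a, a coactivator of mitochondrial biogenesis, had 49.5 CPM in Lcn2-high, 72.5 CPM in Lcn2-low and 144 CPM in WT gate cells (log2 ratio of the knockout groups -0.55). Fatty acid oxidation had a median of -0.20 over 20 genes and glycolysis of -0.15 over 17, again with none past 2-fold. Primary cilium genes had a median of -0.04 over 30 genes, close to that of all genes.

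Genes of DNA replication and mitosis stood highest among the lists. All 23 tested had a ratio above 0, 8 were higher by at least 2-fold, and the median was 0.80. Top2a, a topoisomerase of dividing cells, had 32.5 CPM in Lcn2-high, 14.0 CPM in Lcn2-low and 24.0 CPM in WT gate cells, Mcm3, a subunit of the replicative helicase, 19.4 and 8.30 CPM in the knockout groups, and Aurkb, a mitotic kinase, 7.88 and 2.23 CPM. These UMIs sat in few cells, since Aurkb was found in 30 Lcn2-high and 11 Lcn2-low cells. With at least 3 UMIs of 6 cycling markers, 53 Lcn2-high cells (7.01%, 5.30 to 9.07) and 25 Lcn2-low cells (2.77%, 1.80 to 4.07) were counted as cycling cells, a rule set after values were seen. At 1000 UMIs per cell, 34 of 715 Lcn2-high cells (4.76%, 3.32 to 6.58) and 18 of 797 Lcn2-low cells (2.26%, 1.34 to 3.55) had any UMI of these markers. The 53 Lcn2-high cells among them had 7770 CPM of S100a6, 8286 CPM of Clu and 1934 CPM of Krt18, and a median depth of 26647 UMIs. The 6 markers summed to 132 CPM in Lcn2-high, 72.0 CPM in Lcn2-low and 402 CPM in macrophage-marked cells, and the part of the last was not tested. Without the cycling cells of both groups, 57 genes were higher by at least 2-fold in Lcn2-high cells in place of 93. The list's median was -0.15 after the wide removal and 1.33 after the narrow one. The log2 ratio of Top2a was -0.59 after the wide removal, -0.62 against Lcn2-low cells under 0.1% Lcn2 and -0.14 with collecting duct genes at 1% or more.

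Secreted factors linked to muscle wasting, the subject of the series title, included 12 genes with enough UMIs, of which 1 was higher and 1 lower by at least 2-fold (median 0.10). Gdf15, a stress hormone that acts on the hindbrain, had 335 CPM in Lcn2-high, 227 CPM in Lcn2-low and 82.4 CPM in WT gate cells (log2 ratio of the knockout groups 0.56). Ctgf, a matricellular factor, had 33.1, 22.7 and 13.7 CPM (0.54). Among growth and adhesion genes, Hbegf, a ligand of the EGF receptor, had 40.5 and 26.4 CPM (0.62), Myc 21.05 and 13.8 CPM (0.61), Ccnd1, cyclin D1, 594 and 436 CPM (0.45), Wnt7b 57.0 and 42.5 CPM (0.42) and Itgb6, an integrin chain that activates TGF-beta, 65.1 and 39.9 CPM (0.71). Cdh1, E-cadherin, had 188 and 244 CPM (-0.37). Antioxidant genes had a median of -0.08 over 24 genes; Gsr, glutathione reductase, had 232 and 166 CPM (0.48), and Gclc, of glutathione synthesis, had 86.1 and 125 CPM (-0.54). Gpx3, Gsta2 and Gsta4 were lower by at least 2-fold, and 10 of 901 Lcn2-low cells held 70.8%, 63.3% and 56.4% of their UMIs.

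**Figure D4:**
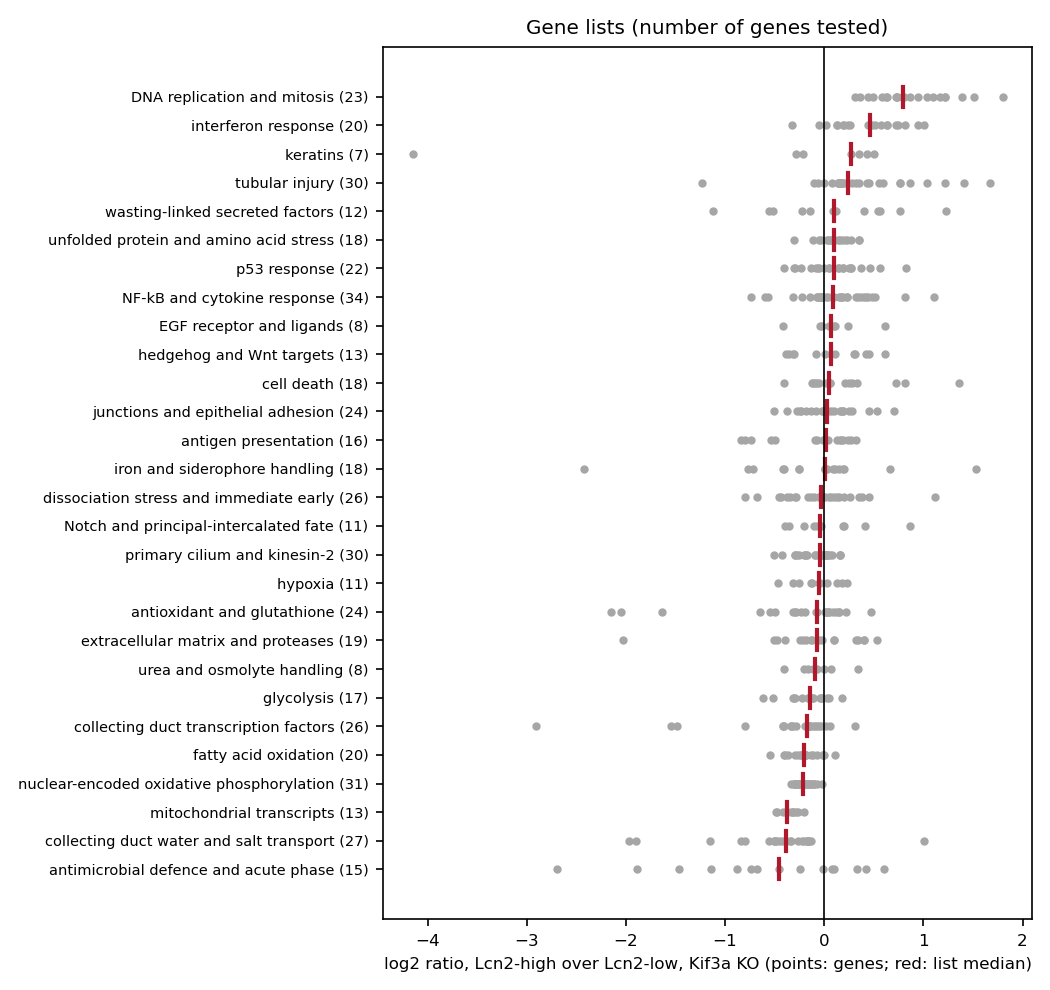
Log2 ratio of Lcn2-high over Lcn2-low cells of the Kif3a KO library (x axis) for each tested gene (grey points) of the lists with at least 5 tested genes (y axis, number tested in brackets), with list medians in red. DNA replication and mitosis has the highest median (0.80) and antimicrobial defence the lowest (-0.45), and single genes far left such as Krt15 rest on few cells.

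Set against WT gate cells, Lcn2-high cells were higher by at least 2-fold for 846 of 10204 genes (8.29%) and lower for 1037 (10.2%), and Lcn2-low cells were higher for 752 of 9961 (7.55%) and lower for 700 (7.03%). Both comparisons use the same 62 WT cells, which hold few UMIs and a larger mitochondrial share. With mitochondrial genes and Lcn2 left out of the totals, every ratio moved by -0.12 for Lcn2-high and by -0.11 for Lcn2-low cells, and the counts were 664 higher and 1335 lower for Lcn2-high cells and 609 higher and 938 lower for Lcn2-low cells. Of 27 transport genes, Lcn2-high cells were lower by at least 2-fold than WT for 12 and Lcn2-low cells for 6. Of tubular injury genes, 15 of 29 in Lcn2-high and 11 of 28 in Lcn2-low cells were higher by at least 2-fold than WT, and none was lower.

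Lcn2 at or above 0.5% was not limited to the gate. Of 7236 kept knockout cells 1433 (19.8%) reached it, 756 (52.8%) inside the gate and 677 (47.2%) outside, against none of 4371 WT cells, which allows up to 0.0844%. Of the 677 cells, 537 had low collecting duct transcripts and 140 had them but carried a marker that closed the gate. Among 896 cells over the threshold with collecting duct transcripts, Calb1 of connecting tubule closed it for 108, Atp6v1g3 of intercalated cells for 39, Slc12a1 of thick ascending limb for 4 and Slc12a3 of distal convoluted tubule for none.

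Thick ascending limb gate cells of the knockout library were divided at the same Lcn2 threshold, giving 62 Lcn2-high and 343 Lcn2-low cells. Of 8198 genes, 50 were higher (0.61%) and 169 lower (2.06%) by at least 2-fold. Clu had 2134 CPM in Lcn2-high and 1212 CPM in Lcn2-low limb cells (log2 ratio 0.82), Ctsd 1472 and 980 CPM (0.59) and Spp1 72717 and 37692 CPM (0.95), all in the direction of the collecting duct. S100a6 was nearly level, with 2444 and 2583 CPM (-0.08). Stmn1 had 101 and 129 CPM (-0.35) and Ankrd1 11.03 and 12.7 CPM. Of genes lower in collecting duct, Nudt4 had a log2 ratio of -0.59 and Myo10 of -1.03 in the limb, and Sgk1, at 9.81 and 8.53 CPM, had 0.27 (-1.11 to 1.33). Whether the ratios differ between segments beyond the spread between mice was not tested.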

How the data were processed

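Single-cell 3' RNA libraries of 1 Kif3aΔTub and 1 WT kidney sample were used. The deposited values are whole-number UMI counts per gene and barcode in filtered matrices of 31053 genes, made by the authors with Cell Ranger 3.1.0, per the file headers; the submitters' processing notes name Cell Ranger 3.0.2, Seurat 3.1.1 and mm10. Kept barcodes were 7236 of 7950 in the knockout and 4371 of 6938 in the WT library. Cells, lists and named genes were chosen with earlier results of these data known.

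UMIs were summed per group and compared as log2 ratios (pseudocount 0.5 counts) with exact conditional 95% intervals, and CPM with exact Poisson intervals; shares carry exact Clopper-Pearson intervals. These cover counting error only. A gene needed 50 UMIs over both groups, and a group at 0 was set to a floor of 3 counts. Named genes were the 15 highest and 15 lowest ratios whose interval excluded 0 and whose higher group had no fewer than 50 UMIs, reached 50 CPM and stood at 0.5 times the level of all kept cells or more, a guard for free RNA; mitochondrial, ribosomal, haemoglobin, predicted and rule genes and non-epithelial markers were left out. From each list up to 6 genes with the largest ratios could be named, any from the iron, keratin and collecting duct lists, and further members were picked after their values were seen. Scrublet doublets were kept in the main values and removed in an alternative. The calculation was checked on Poisson counts simulated from the summed means of the gate cells. Such counts lack spread between cells, so the check covers counting error only. Python 3.11.15, scanpy 1.11.5, numpy 2.4.6, scipy 1.17.1, pandas 2.3.3 and matplotlib 3.10.9 were used. Promoters are RefSeq, GRCm38.p6.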

Additional observations from a re-analysis of the deposited data

Results flagged for a closer look

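S100a6 was higher in Lcn2-high cells of the collecting duct gate but nearly level in those of the thick ascending limb gate. Its log2 ratio of Lcn2-high over Lcn2-low knockout cells was 1.41 in the collecting duct gate and -0.080 (-0.15 to -0.01) in the thick ascending limb gate, at 2444 CPM in Lcn2-high and 2583 CPM in Lcn2-low limb cells. Stmn1 had 0.94 in the collecting duct gate and -0.35 (-0.71 to -0.03) in the limb gate. These intervals cover counting error only and do not establish an opposite direction in the limb. The difference between segments was not tested in either gene, since each rests on 1 library.

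Outside the collecting duct gate, 677 knockout cells had at least 0.5% Lcn2, against 0 of 4371 kept WT cells.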

How the results depend on the processing

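With 1 library per genotype, no replicate could be left out, depth of the 62 WT cells limits every WT value, and the counts of genes depend on settings. No paired analysis was possible because each genotype has 1 library. The Lcn2-high share of gate cells was 37.3% with collecting duct genes at 1% or more, 30.1% without cells holding non-epithelial marker UMIs, 18.1% at a 1% Lcn2 threshold and 69.0% at 0.25%. Genes past 2-fold, higher and lower, numbered 15 and 32 with collecting duct genes at 1%, 294 and 281 against Lcn2-low cells under 0.1%, 151 and 261 as a mean over cells, 17 and 35 thinned to 1000 UMIs, 176 and 254 with a minimum of 20 UMIs, and 401 and 762 with no minimum. Higher genes numbered 32 without non-epithelial UMIs and 57 without cycling cells, and lower genes 218 at the 1% threshold. Unthinned shares of Lcn2-high and Lcn2-low cells with a UMI were 91.9% and 90.1% for Krt18, 98.4% and 89.1% for Clu, 88.5% and 71.9% for S100a6 and 24.5% and 44.6% for Sgk1.

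Of the 30 named genes, Sprr2f, Kcne1 and Col26a1 changed direction in 1 alternative each. Against Lcn2-low cells under 0.1%, log2 ratios were -1.42 for Sprr2f, 0.22 for Gata3, 0.16 for Avpr2, 1.58 for S100a8, 1.07 for S100a9, 0.24 for Scnn1a, -0.62 for Top2a, -0.23 for Tk1 and 0.35 for Aqp4. Without cells holding non-epithelial marker UMIs they were 0.091 for Kcne1, 0.28 for Col26a1, 0.041 for Gata3, 0.15 for Avpr2, -2.42 for Sprr1a, 0.32 for Scnn1a, 0.090 for Rhcg, 0.055 for Scnn1g, 0.076 for Nr3c2, 0.16 for Kcnj1, -0.59 for Top2a, -0.55 for Krt19, -0.067 for Krt7, -0.049 for Krt8, 0.46 for Aqp4, -0.13 for Fth1 and -0.51 for Ifit3, and the list medians were 0.12 for antimicrobial defence, -0.24 for keratins and -0.15 for DNA replication. At the 1% threshold they were -0.25 for Isg15, -0.028 for Fth1 and -0.44 for Ifit3. With collecting duct genes at 1% they were -0.14 for Top2a and 0.046 for Krt80. As a mean over cells they were 0.039 for Avpr2, 0.16 for Scnn1a and 0.21 for Aqp4, and thinned 0.16 for Aqp4. In the removal that spares cells for Plac8 and Lyz2, chosen after seeing the data as was removal of cycling cells, S100a9 was at 0.42 and Fth1 at -0.021. Further list medians without cells holding non-epithelial marker UMIs were 0.062 for water and salt transport and -0.007 for interferon-induced genes. That of tubular injury genes was 0.031. The cause of these moves was not tested.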

Other observations

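Shallow cells with a high mitochondrial share numbered 62 among Lcn2-high cells (8.20%) and 80 among Lcn2-low cells (8.88%), at under 3000 UMIs and at least 15% mitochondrial UMIs. The 62 Lcn2-high cells had 58571 CPM of Spp1, 13460 CPM of Aqp2 and 11945 CPM of Clu, but 668 CPM of S100a6 and 458 CPM of Krt18. The limits were chosen after values were seen.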
